A study of Homo sapiens with 12 samples.

Results

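The stretch of 700 nucleotides of 28S ribosomal RNA (rRNA) that ends at position 3000 was examined for 2'-O-methylation by RiboMeth-seq. It makes up 700 of the 8164 positions measured and holds 15 of the 68 methylated sites that the study lists in 28S rRNA, out of 141 sites in all RNAs. Members were taken by position alone, and the other 685 positions served as background. The 15 sites formed 2 clusters when neighbouring sites at most 100 positions apart were joined. The first cluster spanned 74 positions, from 2350 to 2423, with 8 sites: Cm2350, Am2362, Gm2363, Cm2364, Am2400, Um2414, Cm2421 and Gm2423. The second spanned 90 positions, from 2786 to 2875, with 7 sites: Am2786, Cm2803, Am2814, Cm2823, Um2836, Cm2860 and Gm2875. The 362 positions between them held no listed site.

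All 12 libraries came from Flp-In T-Rex HEK293 cells, derived from human embryonic kidney and built to take up inducible transgenes at a set locus. There were 4 groups of 3 biological replicates: GPATCH4 knockout (KO) cells, wild-type (WT) cells, wild-type cells transfected with siRNA against DHX15 (siDHX15), and wild-type cells transfected with non-target siRNA (siNT). The labels do not say whether the knockout replicates come from 1 clone or several, and rRNA read ends do not check the knockout or the knockdown. WT cells were not described as transfected, so siNT served as the control for siDHX15.

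In rRNA, 2'-O-methyl groups are placed by fibrillarin within box C/D small nucleolar ribonucleoproteins, whose snoRNA pairs with the target and selects the nucleotide. The guide named beside a site below is the one catalogued for it in human cells, given as background and not taken from the tables. RNA helicases remodel these pairings during ribosome assembly. DHX15 belongs to the DEAH-box helicases, and GPATCH4 is a nucleolar protein with a G-patch, a motif that binds and activates DEAH-box helicases. In RiboMeth-seq, RNA is cut by alkali, and a 2'-O-methyl group protects the bond that follows it. Fewer read ends than at the 6 neighbours on each side give an RMS score above 0, up to 1 when no read ends fall at the site. The score is a depletion relative to neighbours and not a share of methylated molecules.

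The sequences of both clusters, as the deposited tables give them, show where the sites lie, with listed sites in capitals and every other base in lower case.
First cluster, positions 2341 to 2430: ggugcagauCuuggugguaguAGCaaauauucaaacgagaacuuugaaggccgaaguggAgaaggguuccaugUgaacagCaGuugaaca
Second cluster, positions 2781 to 2880: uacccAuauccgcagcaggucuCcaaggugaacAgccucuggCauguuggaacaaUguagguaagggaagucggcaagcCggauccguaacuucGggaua
The first cluster holds 3 adjacent sites, Am2362, Gm2363 and Cm2364, and a pair 2 positions apart, Cm2421 and Gm2423. Such sites are each other's neighbours in the score and are not independent. Steps between sites ran from 1 to 36 positions in the first cluster and from 9 to 24 in the second.

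The GC content was 45.9% in the first cluster and 53.3% in the second, against 67.1% between them and 65.9% over all 700 positions. The methylated base was C at 6 sites, A at 4, G at 3 and U at 2. The base after the site was G at 7 of 15 sites, beside 38% G among all bases of the stretch. The study's site names in an older numbering are 12 lower. Ribosomal DNA lies in repeats; one 28S copy, RNA28SN1, is annotated by RefSeq in GRCh38.p14 at chr21:8441146-8446211. That copy has 5066 bases and the deposited 28S sequence has 5069, so positions are given in the tables' numbering.

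Libraries held between 875096 and 16314082 read ends, and 13.8% to 18.6% of those on 28S fell in the stretch. The knockout and WT libraries were deeper than the siRNA ones, with 7437847 to 16314082 against 875096 to 5111963 read ends. The median neighbour mean at the 15 sites was 211 read ends in siDHX15 replicate 1, the shallowest library, and 3121 in WT replicate 1, the deepest. Reads carry no molecular identifiers, so counting errors bound only part of the uncertainty. The largest counting error of a site score was 0.0901, at Am2786.

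**Figure D1:**
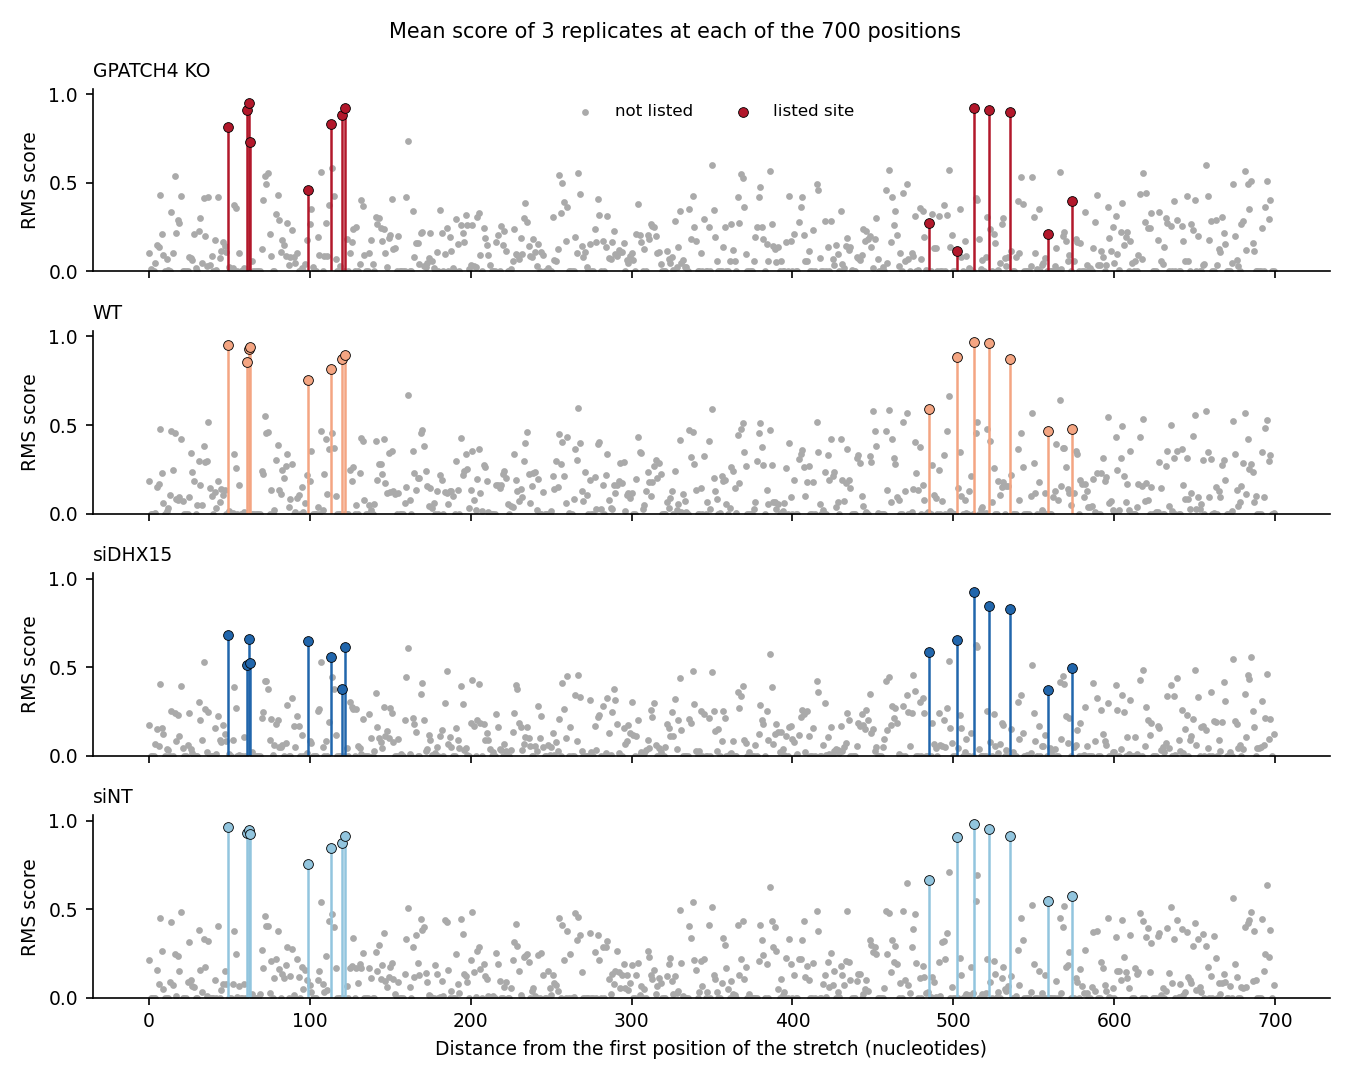
Mean RMS score (vertical axis, 0 to 1) of 3 replicates at each of the 700 positions against the distance in nucleotides from the first of them, in GPATCH4 KO, WT, siDHX15 and siNT. Coloured stems are the 15 listed sites and grey points the 685 others; the stems of the first cluster are shorter in siDHX15 than in siNT, and that of Cm2803 is near the background in GPATCH4 KO.

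Most sites scored high in the controls. Over the 3 WT and 3 siNT libraries, Am2814 had the highest mean, 0.973, followed by Cm2350 and Cm2823, each at 0.957. Cm2860 had the lowest, 0.505, after Gm2875 at 0.526 and Am2786 at 0.630. These last 3 all lie in the second cluster, and their control libraries overlapped one another: from 0.449 to 0.581 at Cm2860, from 0.391 to 0.697 at Gm2875 and from 0.519 to 0.772 at Am2786. Am2400, at 0.754, and Um2414, at 0.833, were the lowest of the first cluster and did not overlap each other. The other 10 sites had control means between 0.872 and 0.973, and neighbours in that order overlapped in their libraries.

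The siNT and WT controls were set against each other first. No site of the 141, in the stretch or elsewhere, passed an adjusted p of 0.05 in limma, which fitted the score of all 12 libraries with 4 group means; 10 of the 141 were under an unadjusted p of 0.05. Am2362 alone was under an unadjusted p of 0.05 among the 15, with 0.936, 0.895 and 0.954 in siNT and 0.835, 0.849 and 0.876 in WT (difference 0.0748, unadjusted p = 0.0174, limma adjusted p = 0.370). edgeR on the read ends also called 0 of the 15. All 3 siNT scores lay above all 3 WT scores at Am2362, Gm2363 and Cm2860, 3 of 15 sites beside 17.7% of all sites, and below them at 0 of 15, beside 4.26%. Transfection and experiment cannot be told apart in this comparison.

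In GPATCH4 KO cells, 7 of the 15 sites fell relative to WT and none rose (limma, two-sided, Benjamini-Hochberg over 141 sites). Over all sites 24.8% fell and 0.709% rose. The 7 were Cm2350, Cm2364 and Am2400 in the first cluster and Am2786, Cm2803, Am2814 and Cm2860 in the second. The median difference of the 15 sites was -0.0521, against -0.00539 at the 126 sites elsewhere, of which 28 fell and 1 rose. The 53 other sites of 28S rRNA had a median of 0.00477, with 8 lower and 1 higher. Without WT replicate 1, 2 or 3 the count in the stretch was 4 in each case, since Am2400, Am2814 and Cm2860 missed the threshold.

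Cm2803, whose catalogued guide is SNORD55, lost nearly all of its depletion in the knockout. It scored 0.154, 0.118 and 0.0796 in GPATCH4 KO, against 0.916, 0.836 and 0.896 in WT. The lowest WT score was far above the highest knockout score. The difference was -0.765 ± 0.0482 (SE, n = 3 each, limma adjusted p = 6.43e-07). Here and below, the SE of a difference comes from a spread pooled over all 4 groups. In read ends, knockout replicate 1 had 2303 at the site with a neighbour mean of 2722, and WT replicate 1 had 336 with a neighbour mean of 4020. Relative to neighbours, read ends at the site were 7.52-fold higher in the knockout than in WT. Most of these were read 5' ends, 2118 of the 2303 in knockout replicate 1 and 327 of the 336 in WT replicate 1. With 5' ends alone the difference was -0.757, and with 3' ends alone -0.831.

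Am2786, catalogued to SNORD99, lies 17 positions before Cm2803 and fell as well. Its scores were 0.319, 0.158 and 0.335 in GPATCH4 KO and 0.593, 0.666 and 0.519 in WT. The groups did not overlap, and the difference was -0.322 ± 0.0591 (SE, n = 3 each, limma adjusted p = 0.00196). Its neighbour means were the lowest of the 15 listed sites in the siRNA libraries, from 55.5 to 361 read ends in siDHX15 and from 80.6 to 118 in siNT.

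Cm2350 and Cm2364, both catalogued to the guide SNORD24, fell in the first cluster. Cm2350 scored 0.822, 0.824 and 0.805 in GPATCH4 KO and 0.927, 0.969 and 0.960 in WT, a difference of -0.135 ± 0.0205 (SE, n = 3 each, limma adjusted p = 0.000488). The knockout scores of Cm2350 lay close together and below every WT score. Cm2364 scored 0.785, 0.792 and 0.621 in GPATCH4 KO, where replicate 3 was lowest, and 0.951, 0.932 and 0.939 in WT. Its difference was -0.208 ± 0.0431 (SE, n = 3 each, limma adjusted p = 0.00401). The adjacent Am2362 and Gm2363, which lie 2 and 1 positions before Cm2364, did not pass. They scored higher in all 3 knockout libraries than in all 3 WT libraries, with differences of 0.0587 (limma adjusted p = 0.147) and 0.0208 (adjusted p = 0.299). Cm2364 is among their neighbours, so a lower score there raises theirs. With listed sites left out of the neighbours, the differences were 0.0431 at Am2362, 0.0159 at Gm2363 and -0.166 at Cm2364. Am2362 and Gm2363 were the 2 sites of the 15 with higher knockout scores throughout, beside 7.09% of all sites.

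The calls at Am2400, Am2814 and Cm2860 depended on single libraries. Am2400 scored 0.594, 0.186 and 0.606 in GPATCH4 KO and 0.711, 0.780 and 0.775 in WT, so replicate 2 stood far below the other knockout libraries. In that library the study's tables also give a recalculated value of 0.439, equal to the score from 5' ends alone; 2409 of its 3554 read ends at the site were 3' ends. The difference of -0.293 ± 0.0953 (SE, n = 3 each, limma adjusted p = 0.0480) was -0.155 without knockout replicate 2 (adjusted p = 0.0182). The authors' overview uses the recalculated value of Am2400 in the knockout only, with a mean of 0.547, against 0.462 from the scores here. With recalculated values in every group that has one, the difference was -0.209 (adjusted p = 0.00917). Without WT replicate 1, 2 or 3 the adjusted p of Am2400 was 0.0800, 0.129 and 0.114.

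Cm2860, catalogued to SNORD50A, scored 0.362, 0.0408 and 0.235 in GPATCH4 KO and 0.459, 0.449 and 0.486 in WT. Its difference was -0.252 ± 0.0715 (SE, n = 3 each, limma adjusted p = 0.0250), and -0.166 without knockout replicate 2, the lowest library at this site too. The adjusted p of Cm2860 was 0.0630, 0.0603 and 0.0747 without WT replicate 1, 2 or 3. Am2814, catalogued to SNORD95, had the smallest called difference, with 0.907, 0.937 and 0.915 in GPATCH4 KO and 0.958, 0.961 and 0.980 in WT (-0.0463 ± 0.0146, SE, n = 3 each, limma adjusted p = 0.0421). The groups did not overlap at Am2814. Its call was lost without WT replicate 1, 2 or 3 (adjusted p 0.0728, 0.0872 and 0.132) and without knockout replicate 1 or 3 (0.126 and 0.101).

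The other 8 sites did not pass between GPATCH4 KO and WT. Um2414, Cm2421 and Gm2423, at the 3' side of the first cluster, differed by 0.0122, 0.0101 and 0.0281, with overlapping libraries. Their 95% intervals ran from -0.0684 to 0.0929, from -0.108 to 0.128 and from -0.0154 to 0.0716. Cm2823, Um2836 and Gm2875 in the second cluster differed by -0.0521, 0.0310 and -0.0839. Cm2823, which shares the catalogued guide of Am2814, scored 0.939, 0.859 and 0.932 in GPATCH4 KO and 0.962, 0.969 and 0.956 in WT (limma adjusted p = 0.139). Knockout scores were lower than all WT scores at 8 sites, the 7 that fell and Cm2823, beside 31.2% of all sites.

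When libraries were centred, each on the median of its deviations from the site means, the knockout split of the stretch was 5 lower and 3 higher, in place of 7 and 0. The 3 higher sites were then Am2362 (0.0874), Gm2363 (0.0495) and Gm2423 (0.0568), while Am2400 and Am2814 did not pass. The shares of all listed sites that were lower or higher after centring were not counted. Whether the centred split is particular to the stretch was therefore not tested. Before centring, Am2362, Gm2363 and Gm2423 differed by 0.0587, 0.0208 and 0.0281, and none of them passed in the main fit. Centring thus raised these differences by more than the size of the median knockout difference over all listed sites in the study, which was -0.00607.

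**Figure D2:**
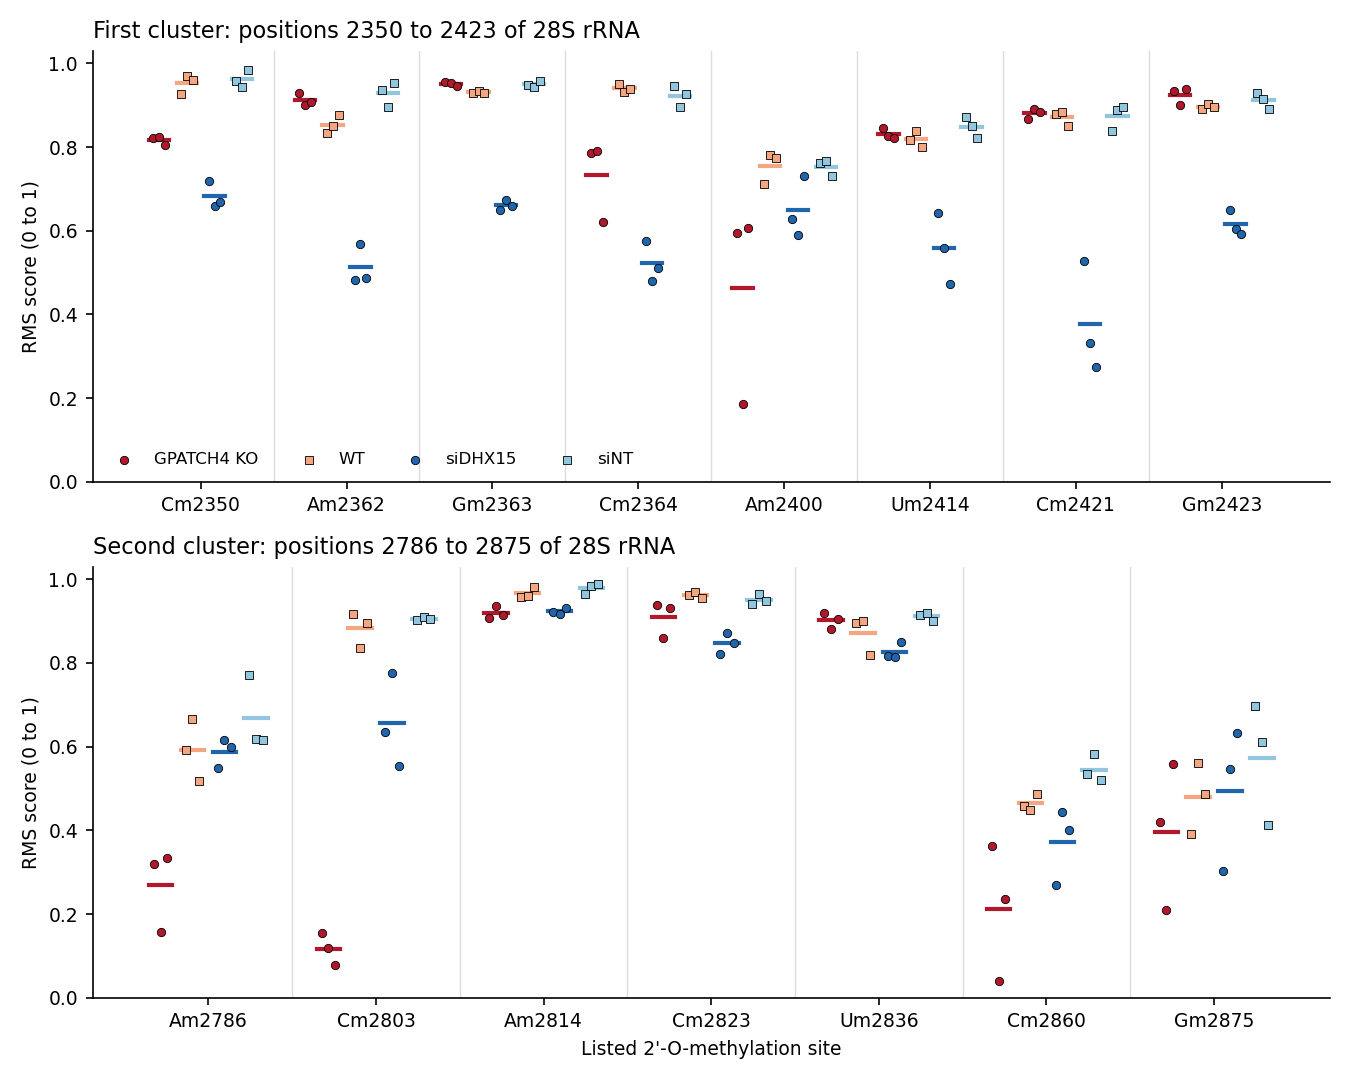
RMS score (vertical axis, 0 to 1) of each library at the 8 sites of the first cluster (upper panel) and the 7 of the second (lower panel), with GPATCH4 KO, WT, siDHX15 and siNT side by side; points are replicates and bars their means. Cm2803 is at 0.0796 to 0.154 in GPATCH4 KO, and 7 of the 8 first-cluster sites lie lower in siDHX15 than in every siNT library.

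In siDHX15 cells 11 of the 15 sites fell relative to siNT and none rose, beside 31.2% lower and 0% higher over all sites in limma. These were 7 of the 8 sites in the first cluster, and Cm2803, Am2814, Cm2823 and Um2836 in the second. All 15 differences were below 0. Their median was -0.251, against -0.0502 at the 126 sites elsewhere, where 33 fell, and -0.0358 at the 53 other sites of 28S rRNA, where 15 fell. At 12 sites every siDHX15 library was below every siNT library, beside 44% of all sites.

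The largest difference was at Cm2421, whose catalogued guide is SNORD5. It scored 0.527, 0.332 and 0.274 in siDHX15 and 0.838, 0.888 and 0.896 in siNT, a difference of -0.496 ± 0.0526 (SE, n = 3 each, limma adjusted p = 4.77e-05). siDHX15 replicate 1 was the highest of its group and still below every siNT library. Its neighbour Gm2423, catalogued to SNORD6, scored 0.650, 0.603 and 0.593 in siDHX15 and 0.929, 0.915 and 0.890 in siNT (-0.296 ± 0.0194, SE, n = 3 each, limma adjusted p = 1.30e-06). With listed sites left out of the neighbours the differences were -0.469 at Cm2421 and -0.281 at Gm2423. Um2414, 7 positions before Cm2421, scored 0.643, 0.560 and 0.472 in siDHX15 and 0.871, 0.851 and 0.822 in siNT (-0.290 ± 0.0360, SE, n = 3 each, limma adjusted p = 0.000131).

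The 3 adjacent sites fell together. Am2362, catalogued to SNORD76, scored 0.482, 0.569 and 0.488 in siDHX15 and 0.936, 0.895 and 0.954 in siNT (-0.415 ± 0.0261, SE, n = 3 each, limma adjusted p = 1.20e-06). Gm2363 scored 0.650, 0.674 and 0.660 in siDHX15 and 0.947, 0.944 and 0.959 in siNT (-0.289 ± 0.0127, SE, n = 3 each, limma adjusted p = 1.59e-07). The siDHX15 and siNT libraries did not overlap at either site. Cm2364 scored 0.576, 0.480 and 0.510 in siDHX15 and 0.946, 0.896 and 0.927 in siNT (-0.401 ± 0.0431, SE, n = 3 each, limma adjusted p = 4.77e-05). Because the 3 sites are neighbours in each other's score, listed sites were also left out, which gave -0.362, -0.255 and -0.349. Cm2350, 12 positions before them, scored 0.720, 0.658 and 0.669 in siDHX15 and 0.959, 0.944 and 0.983 in siNT (-0.280 ± 0.0205, SE, n = 3 each, limma adjusted p = 2.30e-06).

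Am2400 was the exception in the first cluster. It scored 0.628, 0.589 and 0.732 in siDHX15 and 0.761, 0.766 and 0.731 in siNT, and the groups overlapped (-0.103, 95% interval -0.317 to 0.110, limma adjusted p = 0.486). The interval includes a difference of the size found at Um2414, but it rests on a spread pooled over all 4 groups. The SD of Am2400 was 0.239 in GPATCH4 KO, 0.0384 in WT, 0.0738 in siDHX15 and 0.0191 in siNT. The interval is therefore wider than the siDHX15 and siNT libraries alone would make it. It does not show whether those libraries allow such a difference.

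In the second cluster Cm2803 fell by 0.251 ± 0.0482 (SE, n = 3 each, limma adjusted p = 0.00237). Its scores were 0.636, 0.777 and 0.554 in siDHX15 and 0.903, 0.909 and 0.906 in siNT. The siNT scores lay close together and above every siDHX15 score. They rest on few read ends at the site, 39, 52 and 222 in siDHX15 and 26, 24 and 21 in siNT. With read 3' ends alone the difference was -0.182 and did not pass (limma adjusted p = 0.235).

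Cm2823 scored 0.822, 0.873 and 0.848 in siDHX15 and 0.941, 0.965 and 0.948 in siNT (-0.103 ± 0.0227, SE, n = 3 each, limma adjusted p = 0.00522). Um2836, catalogued to SNORD34, scored 0.815, 0.815 and 0.850 in siDHX15 and 0.914, 0.920 and 0.899 in siNT (-0.0845 ± 0.0234, SE, n = 3 each, limma adjusted p = 0.0188). Am2814 scored 0.922, 0.917 and 0.931 in siDHX15 and 0.964, 0.985 and 0.988 in siNT (-0.0557 ± 0.0146, SE, n = 3 each, limma adjusted p = 0.0151). At these 3 sites every siDHX15 score lay below every siNT score, by small margins. At Am2814 the siNT scores rest on 8, 2 and 2 read ends.

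The median difference of all 141 sites was -0.0569, and none of these 3 sites passed after each library was centred. Cm2823 was then at -0.0342 (limma adjusted p = 0.325), Um2836 at -0.0153 (adjusted p = 0.656) and Am2814 at 0.0135 (adjusted p = 0.565). With the library index as a block they did not pass either (adjusted p 0.148, 0.135 and 0.216). With the replicate number as a block, which the main fit left out, Am2814 and Um2836 missed the threshold (limma adjusted p 0.0529 and 0.0541). Then 9 sites of the stretch remained called. Leaving out siNT replicate 2 or 3 ended the call at Am2814 (adjusted p 0.0522 and 0.0507). At Um2836 the call ended without siNT replicate 1 or 2 (adjusted p 0.0581 and 0.0596) and without siDHX15 replicate 1 or 2 (adjusted p 0.0530 and 0.0601).

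Am2786, Cm2860 and Gm2875, the sites with the lowest control scores, did not pass between siDHX15 and siNT. Am2786 scored 0.550, 0.616 and 0.598 in siDHX15 and 0.772, 0.617 and 0.615 in siNT, with overlapping ranges (-0.0803, 95% interval -0.213 to 0.0522, limma adjusted p = 0.354). Cm2860 scored 0.269, 0.444 and 0.402 in siDHX15 and 0.535, 0.581 and 0.520 in siNT, without overlap. Its difference was -0.174 (95% interval -0.334 to -0.0140 before adjustment, limma adjusted p = 0.0942). The pooled spread behind that interval includes GPATCH4 KO, with an SD of 0.162, against 0.0914 in siDHX15 and 0.0320 in siNT. Gm2875, catalogued to SNORD50B, passed in neither comparison. It scored 0.419, 0.209 and 0.558 in GPATCH4 KO and 0.391, 0.560 and 0.487 in WT, and 0.303, 0.546 and 0.633 in siDHX15 and 0.697, 0.611 and 0.412 in siNT. Replicates of each group spread widely at Gm2875, and its intervals ran from -0.333 to 0.166 and from -0.329 to 0.170.

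**Figure D3:**
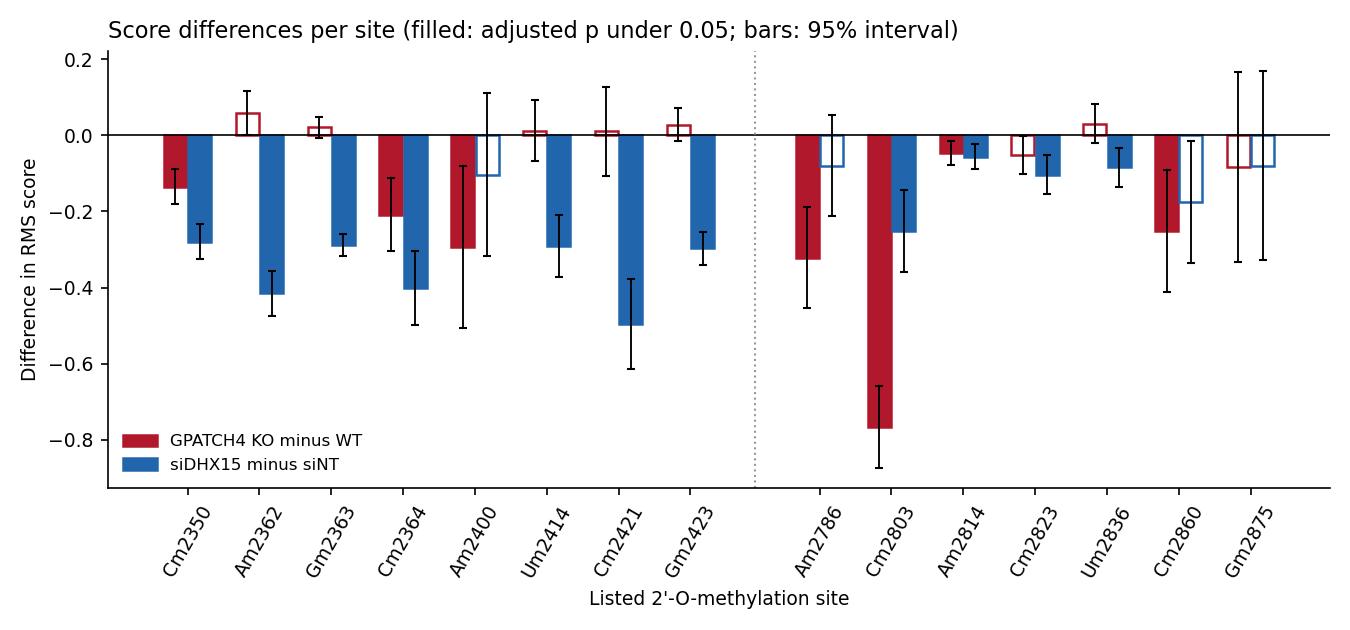
Difference in RMS score (vertical axis) at the 15 listed sites, for GPATCH4 KO minus WT (red) and siDHX15 minus siNT (blue); filled bars passed an adjusted p of 0.05 in limma, lines are 95% intervals and the dotted line parts the clusters. Red bars are filled at 7 sites, deepest at Cm2803 (-0.765), and blue bars at 11, deepest at Cm2421 (-0.496).

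The difference between both effects, GPATCH4 KO minus WT less siDHX15 minus siNT, was tested in the same limma fit. A positive value means a smaller loss, or a gain, in the knockout. It passed at 10 of the 15 sites, 8 higher and 2 lower, beside 20.6% higher and 17% lower over all sites. In the first cluster 7 of 8 were higher: Cm2421 (0.506 ± 0.0745), Am2362 (0.474 ± 0.0369), Gm2423 (0.324 ± 0.0274), Gm2363 (0.310 ± 0.0180), Um2414 (0.303 ± 0.0509), Cm2364 (0.193 ± 0.0609) and Cm2350 (0.144 ± 0.0290), with SE and n = 3 a group. In the second cluster Cm2803 (-0.515 ± 0.0681) and Am2786 (-0.242 ± 0.0836) were lower and Um2836 (0.115 ± 0.0331) higher.

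Among these, Cm2364 (limma adjusted p = 0.0325) and Am2786 (adjusted p = 0.0456) were close to the threshold. Cm2350 did not pass with library indices as blocks (adjusted p = 0.0520), on the logit scale (0.135), in edgeR (0.115) or with 3' ends alone (0.0739). Cm2364, when single libraries were left out, kept its call only without knockout replicate 3, siNT replicate 2 or siDHX15 replicate 1. Leaving out any other library gave it an adjusted p between 0.0570 and 0.0734. Am2786 kept its call only without WT replicate 3, knockout replicate 1 or 3, or siNT replicate 1, and its adjusted p was otherwise between 0.0557 and 0.106. Over all alternatives run, including other settings, Cm2364 lost its call in 15 of 27 and Am2786 in 16 of 26. With the replicate number as a block, Am2786 (adjusted p = 0.123) and Um2836 (adjusted p = 0.0570) did not pass. Um2836 also missed the threshold with the library index as a block (0.0826), with libraries centred (0.111), and with 5' ends (0.196) or 3' ends (0.0576) alone. With all libraries thinned to a total of 875096 read ends, 9 of the 10 passed, without Am2786 (adjusted p = 0.194). Transfection differs between the experiments and cannot be told apart from the difference of effects.

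On the scale of read ends, the 2 effects at Cm2803 were less far apart. edgeR, with the neighbour mean as offset, gave -1.03 for the difference of effects at Cm2803 as minus the log2 ratio of read ends, and did not call it (adjusted p = 0.0970). The fold in relative read ends was 7.52 in GPATCH4 KO over WT and 3.67 in siDHX15 over siNT. At Cm2421 it was 0.922 in GPATCH4 KO over WT and 4.94 in siDHX15 over siNT, and edgeR kept that call (adjusted p = 0.000297).

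Across clusters, the counts and medians were as follows. In GPATCH4 KO against WT, 3 of 8 sites fell in the first cluster (median 0.0112) and 4 of 7 in the second (median -0.0839). In siDHX15 against siNT, 7 of 8 fell in the first (median -0.293) and 4 of 7 in the second (median -0.0845). Cm2350, Cm2364, Cm2803 and Am2814 were the 4 sites that fell in both comparisons. The share of all listed sites in the study that fell in both was not counted. Whether the stretch holds more such sites than elsewhere was therefore not tested. With the replicate block, Am2814 passed in neither (limma adjusted p 0.106 in GPATCH4 KO against WT and 0.0529 in siDHX15 against siNT). Across the 15 sites the 2 effects had a Pearson r of -0.175 and a Spearman rho of -0.357, as a description of sites that share libraries and neighbours.

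The mean score over a cluster's sites in each library showed the same contrast. The first cluster averaged 0.814 ± 0.0286 in GPATCH4 KO and 0.877 ± 0.00915 in WT (SD, n = 3 each). The second averaged 0.533 ± 0.0649 in GPATCH4 KO and 0.746 ± 0.0152 in WT. In the siRNA libraries the first cluster averaged 0.572 ± 0.0324 in siDHX15 and 0.894 ± 0.00570 in siNT, and the second 0.672 ± 0.0497 in siDHX15 and 0.791 ± 0.0320 in siNT. By means, the first cluster was above the second in all KO, WT and siNT libraries and below it in all 3 siDHX15 libraries. By medians, it was above the second in 3 of 3 GPATCH4 KO, 2 of 3 WT, 0 of 3 siDHX15 and 2 of 3 siNT libraries.

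First minus second cluster was 0.250 to 0.326 in GPATCH4 KO against 0.123 to 0.144 in WT, and -0.154 to -0.00735 in siDHX15 against 0.0803 to 0.140 in siNT. The change in that gap was 0.150 between GPATCH4 KO and WT, with a pooled SD between libraries of 0.0293, and 0.0575 without Cm2803. It was -0.203 between siDHX15 and siNT, with a pooled SD of 0.0614, and -0.225 without Cm2803. With the median over a cluster's sites in place of the mean, the changes were 0.422 between GPATCH4 KO and WT and -0.102 between siDHX15 and siNT. Leaving out Cm2803 and taking medians were chosen after seeing the data. These are descriptions without a test. The 126 sites elsewhere averaged 0.727 ± 0.00719 in GPATCH4 KO, 0.818 ± 0.00711 in WT, 0.753 ± 0.00950 in siDHX15 and 0.836 ± 0.00274 in siNT.

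The read ends around Cm2421 and Cm2803 show what lies behind the scores. At Cm2421, read ends relative to the weighted neighbour mean were 0.119 ± 0.0128 in GPATCH4 KO and 0.129 ± 0.0175 in WT, and 0.622 ± 0.133 in siDHX15 and 0.126 ± 0.0317 in siNT (SD, n = 3 each). The next base, which is not listed, was at 1.54 ± 0.246 in siDHX15 and 1.35 ± 0.182 in siNT. At Cm2803 they were 0.883 ± 0.0371 in GPATCH4 KO and 0.117 ± 0.0417 in WT, and 0.344 ± 0.113 in siDHX15 and 0.0938 ± 0.00286 in siNT. The position after Cm2803 was at 0.936 ± 0.204 in GPATCH4 KO and 0.821 ± 0.0878 in WT, a difference within the spread between replicates.

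**Figure D4:**
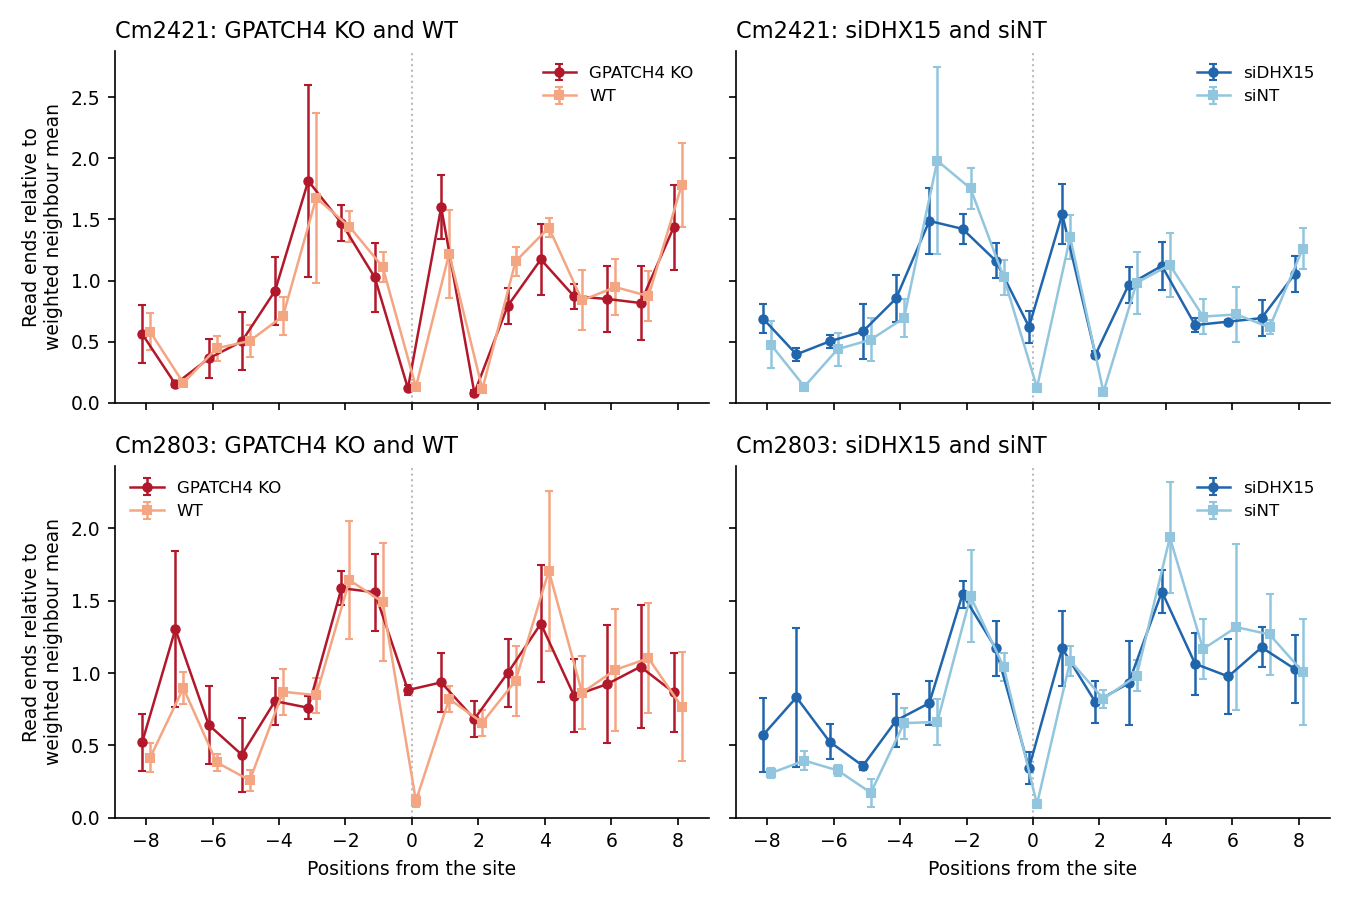
Read ends relative to the weighted neighbour mean of the central site (vertical axis) at 8 positions on each side of Cm2421 (upper row) and Cm2803 (lower row), for GPATCH4 KO and WT (left) and siDHX15 and siNT (right); points are means and lines SD of 3 replicates. The dip at 0 is shallower in siDHX15 at Cm2421, together with that of Gm2423 at 2, and nearly absent in GPATCH4 KO at Cm2803.

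The clusters share a run of 9 bases, printed to show that like sequence carries unlike sites, with listed sites in capitals.
First cluster, positions 2413 to 2421: gUgaacagC
Second cluster, positions 2808 to 2816: gugaacAgc
It occurs 2 times in the 700 positions. Um2414 and Cm2421 lie in the first copy and Am2814 in the second. The counterpart of Am2814 in the first copy, A2419, scored 0 in all libraries. Scores below 0 are set to 0, and the neighbours of A2419 include Um2414, Cm2421 and Gm2423, which lowers its neighbour mean. Relative to the neighbour mean of Cm2421, its read ends averaged 1.47 in GPATCH4 KO, 1.44 in WT, 1.42 in siDHX15 and 1.75 in siNT. The counterpart of Um2414, U2809, had a mean score of 0.0522 over the 12 libraries. The counterpart of Cm2421, C2816, is not listed and averaged 0.401 ± 0.318 in GPATCH4 KO, 0.520 ± 0.286 in WT, 0.611 ± 0.207 in siDHX15 and 0.692 ± 0.115 in siNT (SD, n = 3 each). The replicates of C2816 varied too widely to set the groups apart.

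Among the 685 unlisted positions the median of the mean score was 0.103, against 0.780 at the listed sites. Of the unlisted positions, 629 had a neighbour mean of at least 20 read ends in every library. Mean scores of 0.5 or more were found at 13 of these 629 and at 13 of 15 listed sites. The 5 highest unlisted means among positions with at least 20 read ends at their neighbours were those of G2462 (0.629), G2798 (0.621), G2687 (0.559), C2816 (0.556) and G2651 (0.544). The means of 3 listed sites lay below that of G2462. G2462 scored 0.734 ± 0.138 in GPATCH4 KO and 0.668 ± 0.0244 in WT, and 0.607 ± 0.113 in siDHX15 and 0.507 ± 0.0286 in siNT (SD, n = 3 each). G2798, 5 positions before Cm2803 and thus one of its neighbours, scored 0.573 ± 0.169 in GPATCH4 KO and 0.665 ± 0.0511 in WT, and 0.536 ± 0.0779 in siDHX15 and 0.711 ± 0.152 in siNT. Neither position was called in limma.

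Unlisted positions were tested where their mean score was at least 0.2 and their neighbour mean at least 20 read ends in every library. This was met by 171 positions of the stretch, among 1958 in all RNAs. limma called 0 of them between GPATCH4 KO and WT and 0 between siDHX15 and siNT, beside 0% of all 1958. An unadjusted p under 0.05 was found at 7 and 6 of the 171, and the smallest adjusted p were 0.676 and 0.996.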

How the data were processed

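Per the labels' protocols, alkali-cut total RNA fragments between 20 and 40 nt received linkers and were read on an Ion Proton instrument. Bowtie2 2.3.4.1, cutadapt 2.0 and hg38 appear in the submitters' processing notes, without their roles. Per the file headers, the deposited values are counts of read 5' and 3' ends for every position and replicate, and the authors' RMS score, a fraction from 0 to 1. Deposited standard deviations and other summary columns were not used. At all 700 positions the deposited score equalled, to within 5e-10, 1 minus read ends there divided by the average of 2 weighted neighbour means (6 positions a side, weights 1.0 to 0.5), set to 0 where negative. This score was used throughout, except at 8 snRNA sites of the fit, where the authors' recalculated value was used.

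Samples were grouped by the labels. limma 3.58.1 (R 4.3.3) was fitted on the linear score of all 141 listed sites, with 4 group means, two-sided tests and Benjamini-Hochberg adjustment at 0.05. Alternatives included edgeR 4.0.16 on read ends (offset: log neighbour mean), other scores and filters, blocks and leaving out each library. The tests were also run on simulated scores with independent normal noise and the same spread in every group. That run does not cover unequal spreads between groups or sites that share neighbours. Every listed site is named; unlisted positions are named by the 5 highest mean scores. Members, clusters and tests were chosen with earlier results of these data known. Same-numbered siDHX15 and siNT replicates deviated together weakly from their group means (r across sites 0.117, 0.160 and 0.166), so their numbers may pair them. For GPATCH4 KO and WT the values were 0.120, 0.0459 and -0.000863. Replicates with unlike numbers were not compared, so pairing is not settled. The main fit used no block for replicate number, and the counts with that block are given at the end. In limma, intervals and p-values rest on the spread between 3 replicates a group, pooled over the groups and moderated over the sites fitted. The score has no binomial interval, since it is not a share of molecules.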

Additional observations from a re-analysis of the deposited data

Results flagged for a closer look

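At 10 sites of the stretch the effect of the GPATCH4 knockout (against WT) differed from that of siDHX15 (against siNT) in a test of the difference itself in limma, beside 20.6% higher and 17% lower among all sites. The knockout effect minus the siDHX15 effect was 0.144 at Cm2350, 0.474 at Am2362, 0.310 at Gm2363, 0.193 at Cm2364, 0.303 at Um2414, 0.506 at Cm2421, 0.324 at Gm2423 and 0.115 at Um2836. It was -0.242 at Am2786 and -0.515 at Cm2803. Am2362, Gm2363 and Cm2364 are adjacent, so their values are not independent. The siRNA libraries were shallower; with all libraries thinned to the same total of read ends, though not to the same number at each site, 9 of the 10 passed and Am2786 did not. Transfection also differs between the experiments, and its part was not tested.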

How the results depend on the processing

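Of 664 recomputed values of sites called in a comparison, 571 kept the call, 92 lost it and 1 reversed; 14 of 28 site results kept their call under all alternatives run for them. The reversed value was Am2814 in siDHX15 against siNT, at 0.0135 with libraries centred. The 7 sites called between GPATCH4 KO and WT were 4 with only the 6 libraries compared, 4 with the library index as a block, which leaves 3 residual degrees of freedom, 3 with read 3' ends alone, and 4 to 7 when single libraries were left out. The 11 called between siDHX15 and siNT were 7 with 3' ends alone and 9 to 11 without single libraries. The 10 differences of effects were 6 in edgeR, 5 with 3' ends alone and 8 to 10 without single libraries. The cause of these changes was not tested. Between siNT and WT, and at unlisted positions, the count was 0 under all alternatives run. The change in the cluster gap moved by less than 1 SD between libraries under the alternatives planned. Of 2 added after seeing the data, leaving out Cm2803 gave 0.0575 in GPATCH4 KO against WT, and medians gave 0.422 there and -0.102 in siDHX15 against siNT. The main fit used no replicate block. With it, counts were 5 between GPATCH4 KO and WT, where Am2400 (limma adjusted p = 0.0877) and Am2814 (0.106) were lost. They were 9 between siDHX15 and siNT and 8 for the difference of effects. Pairing by replicate number was not shown in either experiment. The block changed no call but these and those given in the report. At Am2814 siNT libraries held 2 to 8 read ends. After thinning to 875096 read ends a library, the calls at Am2814 were lost (limma adjusted p 0.323 in GPATCH4 KO against WT and 0.113 in siDHX15 against siNT). Its knockout call was also lost in settings that left depth unchanged, and the part of depth was not tested.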
